A study of Mus musculus with 6 samples.

Results

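The genes described here are the aminoacyl-tRNA synthetases, which load amino acids onto transfer RNAs, and families of carriers that move amino acids across membranes. They were chosen by gene symbol alone, as the synthetases with a one-letter amino acid name, the scaffold genes Aimp1 and Aimp2, and the transporter families SLC1, SLC7 and SLC38 (without Slc38a4) with Slc3a2. The rule found 54 of the 12393 genes that have a probe set of their own on the array. Of these, 18 encode cytosolic synthetases or their subunits, 9 encode mitochondrial enzymes of tRNA charging, 2 are scaffold genes and 25 are transporters.

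Each synthetase recognises a particular amino acid and joins it to the matching tRNA, which then carries it to the ribosome. Separate nuclear genes encode most of the enzymes that serve the mitochondrial ribosome. When charged tRNAs run short, or under other stresses, kinases phosphorylate the initiation factor eIF2α, and the transcription factor ATF4 raises many cytosolic synthetases, amino acid transporters and enzymes of amino acid synthesis. Adipocytes take up and break down branched-chain and other amino acids, and cold raises this use in thermogenic fat.

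The RNA came from white fat of mice aged 8 weeks, on a mixed background (C57BL6 with 129), after 4 days of cold at 4 °C. All 6 samples share the cold exposure and, by the series' design text, Yy1 flox/flox alleles, in which the gene of the transcription factor YY1 is flanked by recombination sites. The design text names no Cre for the 3 control samples, and the 3 YY1aKO samples carry Adiponectin Cre, whose promoter works in adipocytes, so that it is not meant to delete Yy1 in the other cells of the tissue. An effect of Cre itself cannot be told apart from that of Yy1 loss. The labels disagree on the depot, as titles and tissue field name epididymal or visceral fat and the sample descriptions and series title subcutaneous fat. The title also calls the deletion brown-fat-specific, whereas the named promoter is active in white adipocytes too.

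Yy1 fell from 1785, 1846 and 1596 in controls 1 to 3 to 373, 323 and 315 in YY1aKO 1 to 3, so the targeted gene matched the labels. The white adipocyte markers were bright on every array, with a summed intensity of 80994 to 121550 for 7 of 8 listed genes. Control 2 stood apart: across genes its correlation with each other array was 0.912 to 0.945, against 0.986 between controls 1 and 3 and 0.995 to 0.996 among YY1aKO arrays. The 6 measured of 12 listed markers of the epididymal epithelium, the lining of the sperm-storing duct, summed to 74833 in control 2, 827 in control 3 and 168 to 194 on the other 4 arrays. Of the 54 members, 13 had their highest value of all 6 arrays in control 2. Of 4 skeletal muscle markers only Acta1 rose with 6 arrays, from 178, 110 and 171 in controls 1 to 3 to 1945, 1107 and 1942 in YY1aKO 1 to 3. It made up most of their sum in YY1aKO, which was 1268 to 2100 against 248 to 308 in controls. Ckm read 60.3 to 72.7 on all arrays, with overlapping groups. For Acta1, Myh4 and Mylpf every YY1aKO array lay above every control. Myh4 was dim, at 11.6 to 15.3, and passed in neither fit. Mylpf, at 51.1 to 74.5, did not pass with 6 arrays. Without control 2 it rose by 0.43 (limma adjusted p = 0.022). Of 7 brown or beige adipocyte markers 3 rose and 1 fell. Their part in the results was not tested. Each count of members is given with all 6 arrays and without control 2. In bulk tissue, fewer cells of a type and less RNA per cell cannot be told apart.

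With 6 arrays, 16 members rose in YY1aKO and 1 fell at an adjusted p under 0.05, and 37 did not pass. Of the 16 that rose, 14 were synthetase or scaffold genes and 2 were transporters. The member that fell was the transporter Slc7a10. Over all 12393 genes, 6.85% were called higher and 3.99% lower, so the 29.6% of members called higher stood above the background, and the share called lower did not. The YY1aKO values lay entirely above the controls for 23 members and entirely below for 6, against 22.4% and 15.5% of all genes. Without control 2, 24 members rose and 4 fell, where 14.7% of all genes were called higher and 11.5% lower. All 17 members called with 6 arrays were called in the same direction without control 2. The counts hung on single arrays, for members and for all genes alike. In limma, 14 members rose without control 1, 1 without control 3 and 0 without YY1aKO 1, YY1aKO 2 or YY1aKO 3 in turn. Without these YY1aKO arrays in turn, 20, 19 and 20 members were higher at an unadjusted p under 0.05. Of all 12393 genes, 736 rose without control 1 and 58 without control 3. Without YY1aKO 1, YY1aKO 2 and YY1aKO 3 in turn 47, 19 and 10 did, against 849 with 6 arrays. In the fit without control 2, dropping each remaining array in turn left 15 to 23 members that rose. The groups of the 17 called members did not overlap, so leaving out an array could not change their direction.

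**Figure D1:**
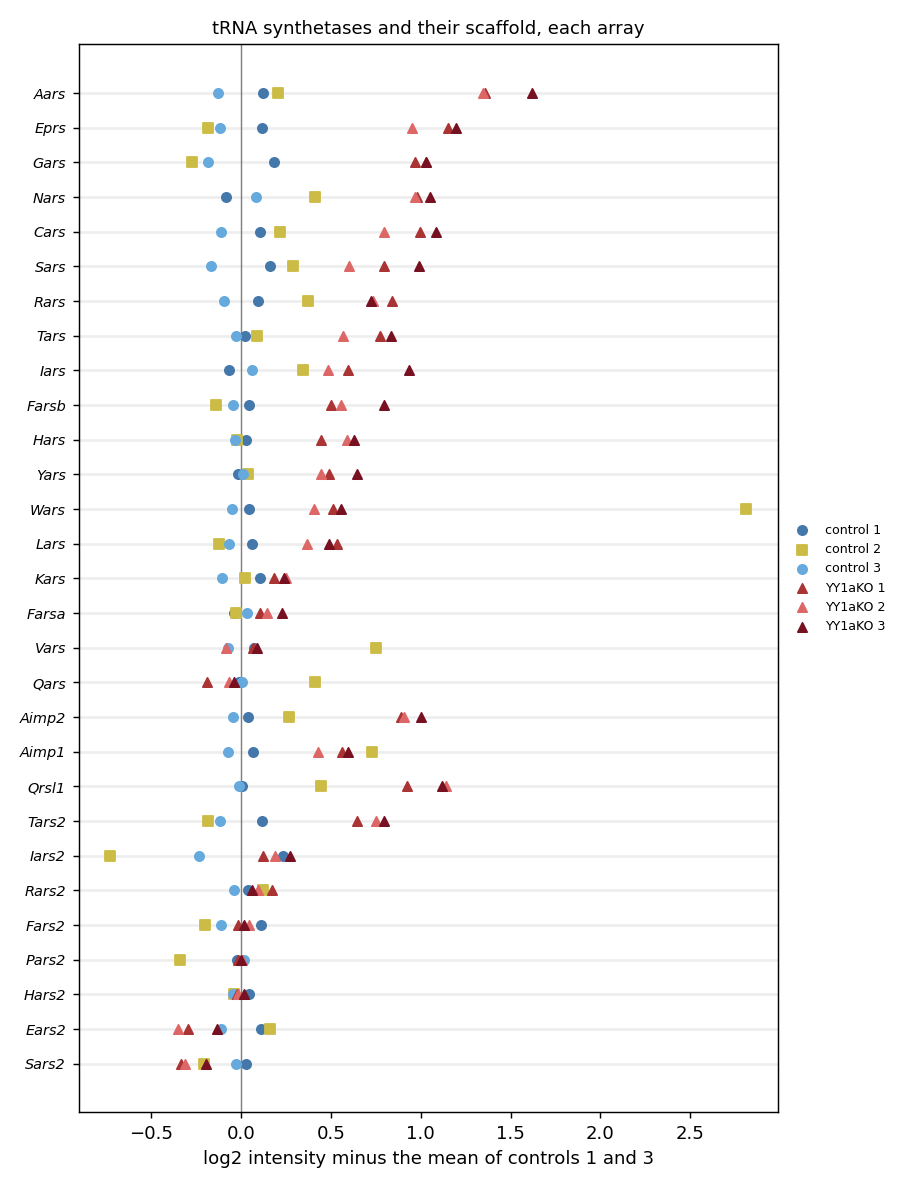
Log2 intensity of each synthetase and scaffold gene on each array, relative to the mean of controls 1 and 3 (x axis, log2 units; circles and squares, controls; triangles, YY1aKO). For Aars, Eprs, Gars and Nars the 3 triangles lie to the right of all control points, while Wars is highest in control 2, 2.81 log2 units above the mean of controls 1 and 3.

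Most cytosolic synthetases rose. With 6 arrays 11 of 18 rose, 7 did not pass and 0 fell (limma; 0 were lower at an unadjusted p under 0.05), with a median log2 fold change of 0.60 against 0.04 over all genes tested. Without control 2, 14 of 18 rose and again 0 fell, with a median of 0.65 against 0.01. All 18 lay among the brightest 60% of genes. In a fit limited to the brightest 60%, 12.9% of the 7436 genes tested were called higher. There, 15 of the 28 synthetase and scaffold genes that were bright enough rose, Sars among them.

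Aars, which charges tRNA with alanine, had the largest rise of any member with 6 arrays. Controls 1 to 3 read 716, 756 and 601, and YY1aKO 1 to 3 read 1680, 1670 and 2018. Its log2 fold change was 1.37 ± 0.13 (standard error, 3 samples in each group), which is 2.59-fold, at a limma adjusted p of 0.0099. The groups did not overlap, and the lowest YY1aKO value was far above the highest control. Its other probe set rose by 1.26. The dual enzyme Eprs, which charges both glutamate and proline, read 1216, 987 and 1035 in the controls, against 2493, 2170 and 2571 in the YY1aKO samples. The rise was 1.16 ± 0.12 (adjusted p = 0.010), and all 3 of its probe sets rose. Every YY1aKO array was well clear of the controls.

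Gars, the glycine enzyme of both cytosol and mitochondria, read 1035, 756 and 802 in the controls, against 1784, 1862 and 1860 in the YY1aKO samples (1.10 ± 0.14, adjusted p = 0.013). Control 1 was the highest of the controls and still far below the YY1aKO arrays. Cars, for cysteine, read 140.8, 152 and 121 against 261, 227 and 277 (0.89 ± 0.13, adjusted p = 0.016). Of its 2 probe sets only the brighter passed. Nars, for asparagine, read 1208, 1704 and 1356 against 2523, 2503 and 2658 (0.86 ± 0.14, adjusted p = 0.022). Here control 2 was the highest control, and without it the rise was 1.00 ± 0.09.

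The remaining called cytosolic genes rose by less, with no overlap between groups in any of them. Tars, the threonine enzyme, read 666, 696 and 642 in the controls, against 1116, 968 and 1165 in the YY1aKO samples, a rise of 0.69 ± 0.10. Farsb, the beta subunit of the phenylalanine enzyme, read 972, 857 and 914 against 1333, 1388 and 1639, a rise of 0.66 ± 0.11 seen in all 4 of its probe sets. Rars, the arginine enzyme, read 829.5, 1006 and 729 against 1391, 1293 and 1285, a rise of 0.64 ± 0.14. The smallest YY1aKO values of these 3 genes were above every control. Hars, for histidine, read 1458, 1406 and 1396 against 1945, 2149 and 2211, a rise of 0.56 ± 0.09. Lars, for leucine, read 787, 691 and 720 against 1089, 972 and 1058, a rise of 0.51 ± 0.10. Yars, for tyrosine, read 383, 398 and 390 against 543.5, 527 and 605, a rise of 0.51 ± 0.09. Their controls were close together, within 100 intensity units for each gene. The adjusted p of these 6 genes ran from 0.017 for Tars to 0.040 for Rars.

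Sars, Iars and Wars did not pass in the fit of all genes with 6 arrays and passed without control 2. Sars, which charges serine, read 590, 644 and 470 in the controls, against 913, 798 and 1047 in the YY1aKO samples, a difference of 0.70 ± 0.16 with an adjusted p of 0.0502, and a rise of 0.80 ± 0.16 without control 2 (adjusted p = 0.017). Its groups did not overlap in either case, and with 6 arrays it lay on the threshold, passing in the fit of the brightest 60% of genes (adjusted p = 0.035). Iars, for isoleucine, differed by 0.56 ± 0.17 (adjusted p = 0.093) and rose by 0.67 without control 2 (adjusted p = 0.025). Wars, the tryptophan enzyme, which interferon induces in many cells, read 340, 2311 and 319 in the controls, against 470, 437 and 485 in the YY1aKO samples. Control 2 alone set its 6-array difference of -0.44 ± 0.78 (adjusted p = 0.756), and without that array Wars rose by 0.49 ± 0.09 (adjusted p = 0.013). Of its 4 probe sets, the dimmest differed by -0.05 without control 2 and did not pass.

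The 4 cytosolic genes that passed in neither fit were Kars, Farsa, Vars and Qars. Kars, for lysine, differed by 0.22 ± 0.09, and Farsa, the alpha subunit of the phenylalanine enzyme, by 0.17 ± 0.08, while its partner Farsb rose. Both had all YY1aKO values above the controls. Whether Farsa and Farsb differ in their response was not tested. Vars, for valine, is given on every array as a gene picked with its values known. It read 223, 358 and 202 in the controls, against 223, 201 and 226 in the YY1aKO samples, so only control 2 stood out. Qars, for glutamine, differed by -0.24 ± 0.14, and by -0.10 ± 0.08 without control 2, with all YY1aKO values below the controls. Another of its 4 probe sets differed by 0.13, or 0.11 without control 2, with overlapping groups.

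Aimp1 and Aimp2 hold several cytosolic synthetases together in the multisynthetase complex. Aimp2 read 381, 446 and 360 in the controls, against 687, 695 and 741 in the YY1aKO samples, a rise of 0.84 ± 0.11 (adjusted p = 0.014), and both of its probe sets rose. Aimp1 read 665, 1051 and 605 in the controls, against 938, 853.5 and 959 in the YY1aKO samples, a difference of 0.29 ± 0.22 (adjusted p = 0.451). Its control 2 value was above all YY1aKO values, and without it Aimp1 rose by 0.53 ± 0.10 (adjusted p = 0.014). Eef1e1, another component, is no member by the rule. It was chosen after its values were seen, and differed by -0.38 ± 0.12, or fell by 0.47 without control 2 (adjusted p = 0.024).

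Among the 9 mitochondrial genes Qrsl1 and Tars2 rose, with either set of arrays, and 0 fell (limma; 1 was lower at an unadjusted p under 0.05). That is 22.2%, against 6.85% of all genes with 6 arrays and 14.7% without control 2. The median log2 fold change was 0.08, or 0.02 without control 2. Qrsl1 is a subunit of the amidotransferase that makes glutaminyl-tRNA in mitochondria. It read 318, 431 and 315 in the controls, against 601, 699 and 686.5 in the YY1aKO samples, a rise of 0.91 ± 0.15 (adjusted p = 0.023), or 1.06 without control 2. Tars2, the mitochondrial threonine enzyme, read 324, 263 and 275 in the controls, against 468, 502 and 518 in the YY1aKO samples, a rise of 0.79 ± 0.11 (adjusted p = 0.015). Neither gene had overlapping groups.

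The other 7 mitochondrial genes passed in neither fit. Hars2 and Pars2, for histidine and proline, differed by 0.01 ± 0.08 and 0.11 ± 0.12. Rars2 and Fars2 differed by 0.07 ± 0.09 and 0.08 ± 0.11, and Iars2 by 0.44 ± 0.24, with a low value of 390 in control 2. Ears2, for glutamate, differed by -0.32 ± 0.11 with all YY1aKO values below the controls, and Sars2 by -0.21 ± 0.10 at intensities of 28.7 to 36.9. The difference between cytosolic and mitochondrial families was not tested.

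The YY1aKO arrays also differed among themselves. Of the 18 cytosolic genes, 14 had their highest YY1aKO value in YY1aKO 3 and 11 had their lowest in YY1aKO 2. The stress-induced pseudokinase Trib3 was likewise lowest in YY1aKO 2, at 421 against 1248 and 1354, as was Acta1, at 1107 against 1945 and 1942, but none of the other 3 muscle markers. Their part in the order of the synthetases was not tested.

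**Figure D2:**
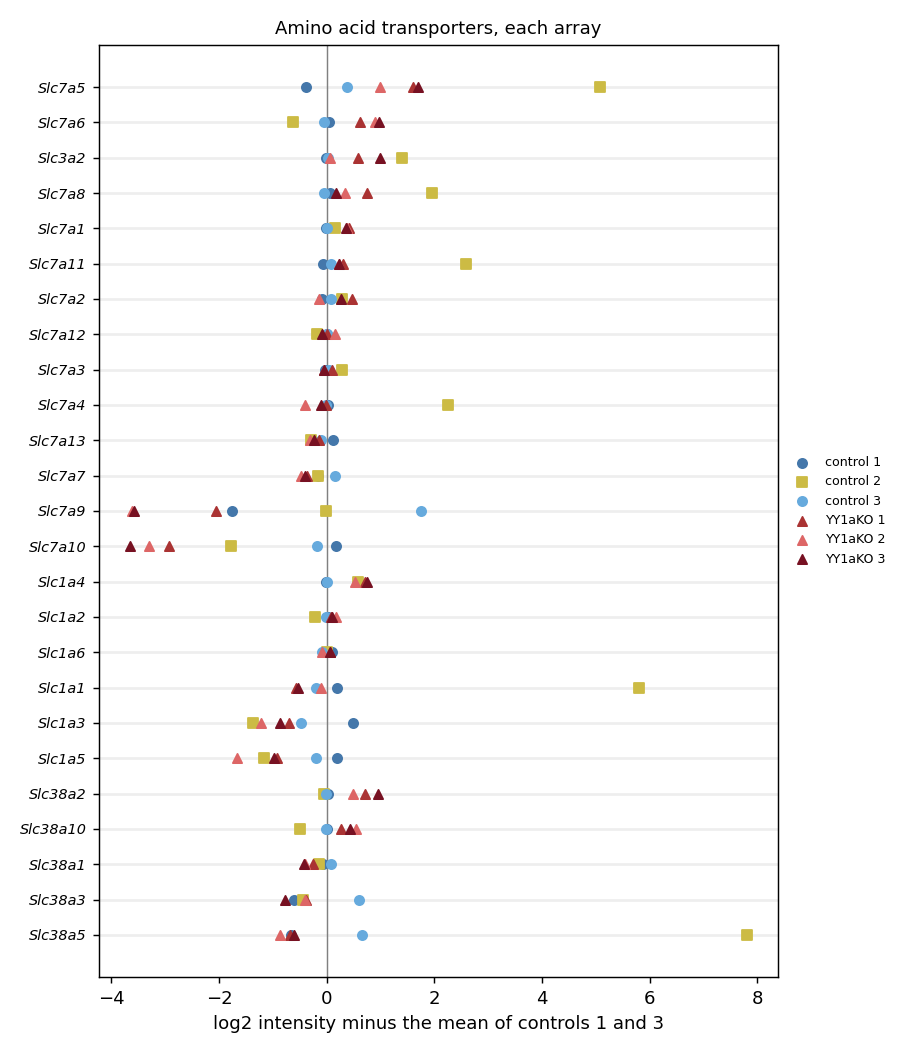
Log2 intensity of each transporter gene on each array, relative to the mean of controls 1 and 3 (x axis, log2 units; circles and squares, controls; triangles, YY1aKO). Slc7a10 lies far to the left in YY1aKO, and the control 2 squares of Slc7a5, Slc1a1 and Slc38a5 lie 5.08, 5.80 and 7.81 log2 units to the right.

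Few transporters passed the test with 6 arrays. Of 25, 2 rose, 1 fell and 22 did not pass with 6 arrays, with a median log2 fold change of -0.23. Without control 2, 6 rose (24%, against 14.7% of all genes) and 4 fell (where 11.5% of all genes did), with a median of 0.02. The share that rose, 8% with 6 arrays, was close to the background of 6.85%. The difference between transporters and synthetases was not tested. Only 12 of the 25 lay among the brightest 60% of genes, those with a mean intensity of at least 114, so many read low on all arrays.

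SLC7 proteins carry large neutral or charged amino acids, and many of them work as a pair with the heavy chain CD98, encoded by Slc3a2. The largest change of any called member was in Slc7a10, which encodes the carrier Asc-1 for small neutral amino acids such as serine and is used as a surface marker of white adipocytes. Controls 1 to 3 read 3298, 846 and 2579, and YY1aKO 1 to 3 read 384, 297 and 231.5. All YY1aKO values were below the lowest control, which was control 2. The log2 fold change was -2.70 ± 0.53 (adjusted p = 0.033), or 6.48-fold lower, and -3.29 ± 0.23 without control 2 (adjusted p = 0.0016). The summed white adipocyte markers read 121550, 80994 and 117014 in controls and 98040 to 104320 in YY1aKO. Of 7 measured, 0 passed with 6 arrays (limma; 1 was lower at an unadjusted p under 0.05) and 1, Retn, fell without control 2. Retn fell there by 1.67 (adjusted p = 0.040), and its groups did not overlap with 6 arrays either. The part of white adipocyte content in the fall of Slc7a10 was not tested.

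Slc7a6, a CD98 partner that exchanges cationic for neutral amino acids, read 277, 173 and 258 in the controls, against 412, 500.3 and 527 in the YY1aKO samples, a rise of 1.04 ± 0.21 (adjusted p = 0.035) seen in both of its probe sets. Its groups did not overlap. The related Slc7a7 differed by -0.36 ± 0.12 (adjusted p = 0.111), and fell by 0.42 without control 2 (adjusted p = 0.0486), from 81.5 and 102 in controls 1 and 3 to between 65.8 and 70.5 in YY1aKO.

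Slc7a5 encodes the leucine carrier LAT1, a known ATF4 target. It read 96.7, 4234 and 163 in the controls, against 379, 250.5 and 404 in the YY1aKO samples. Control 2 was many times above every other array, and with it the difference was -0.27 ± 1.42 (adjusted p = 0.928). Without control 2 Slc7a5 rose by 1.43 ± 0.29, or 2.69-fold (adjusted p = 0.020). Slc3a2 read 1485, 3951 and 1530 in the controls, against 2252, 1575 and 2998 in the YY1aKO samples. Control 2 was again the highest array, and Slc3a2 passed in neither fit, with 0.08 ± 0.45 and, without control 2, 0.54 ± 0.26 (adjusted p = 0.183).

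Slc7a11, the cystine carrier xCT, read 13.8, 86.9 and 15.3 in the controls, against 17.96, 16.97 and 17.06 in the YY1aKO samples. Outside control 2 it was near the floor of the scale on every array, and it passed in neither fit (-0.60 ± 0.72 and, without control 2, 0.26 ± 0.09). Slc7a1, a cationic carrier, was also dim, at 16.2, 18.1 and 16.4 in the controls, against 21.8, 21.2 and 20.9 in the YY1aKO samples, a difference of 0.34 ± 0.09 (adjusted p = 0.062) and a rise of 0.39 without control 2 (adjusted p = 0.017). The cationic carrier Slc7a3 read 35.7, 44.5 and 37.4 in the controls, against 39.2, 35.3 and 35.3 in the YY1aKO samples and did not pass (-0.09 ± 0.12, adjusted p = 0.646). At such intensities the share of background is not known, so small differences may be understated.

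The other SLC7 genes passed in neither fit. Slc7a9, of kidney and gut epithelium and chosen after its values were seen, read 78.7, 262 and 897 in the controls, against 64.0, 21.7 and 22.3 in the YY1aKO samples. The groups did not overlap, yet the controls spread so widely that the difference of -3.07 ± 0.94 did not pass (adjusted p = 0.098). Slc7a4 and the neutral carrier Slc7a8 were highest in control 2, at 964 and 294. Their differences were -0.93 ± 0.64 and -0.23 ± 0.56, and another of the 3 Slc7a4 probe sets fell by 0.64 without control 2 (adjusted p = 0.037 over all probe sets). Slc7a2, Slc7a12 and Slc7a13 read under 40 on every array, with differences of 0.10, 0.08 and -0.14.

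The SLC1 family holds the glutamate carriers Slc1a1, Slc1a2, Slc1a3 and Slc1a6 and the neutral carriers Slc1a4 and Slc1a5, and 0 of its 6 members passed with 6 arrays (limma; 1 was higher and 0 were lower at an unadjusted p under 0.05). Slc1a5, the glutamine carrier ASCT2, read 8109, 3175 and 6217 in the controls, against 3721, 2248 and 3580 in the YY1aKO samples. Control 2 lay within the YY1aKO range and the other controls above it. The difference was -0.81 ± 0.39 (adjusted p = 0.245), and Slc1a5 fell by 1.19 ± 0.25, or 2.29-fold, without control 2 (adjusted p = 0.022). Slc1a4, which carries alanine and serine, read 101, 153 and 102 in the controls, against 166, 146 and 170 in the YY1aKO samples. It differed by 0.46 ± 0.19 (adjusted p = 0.176) and rose by 0.66 ± 0.10 without control 2 (adjusted p = 0.0076), and of its 3 probe sets only the brightest passed.

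Slc1a3 read 1315, 364 and 675 in the controls, against 580, 403 and 513 in the YY1aKO samples, and passed in neither fit (-0.48 ± 0.47 and -0.93 ± 0.30 without control 2, adjusted p = 0.074). Its controls covered the whole YY1aKO range. The other 2 of its 3 probe sets fell by 1.17 and 1.25 without control 2 (adjusted p = 0.029 and 0.028 over all probe sets). Slc1a1 read 3265 in control 2 and 39.5 to 67.2 on the other 5 arrays. Slc1a2 and Slc1a6 read under 60 on all arrays and did not pass.

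SLC38 proteins carry glutamine and other small neutral amino acids with sodium. Slc38a2, the SNAT2 carrier that amino acid shortage induces through ATF4, read 1043, 994 and 1020 in the controls, against 1695, 1456 and 1999 in the YY1aKO samples. The controls were tightly grouped and the YY1aKO values all higher, a rise of 0.74 ± 0.13, or 1.67-fold (adjusted p = 0.026). Slc38a10 differed by 0.58 ± 0.17 (adjusted p = 0.085) and rose by 0.42 without control 2 (adjusted p = 0.037), with some of its 7 probe sets past the threshold. Slc38a1 differed by -0.31 ± 0.10 (adjusted p = 0.106) and fell by 0.36 without control 2 (adjusted p = 0.042).

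Slc38a3 read 107 to 276 with overlapping groups and did not pass. Slc38a5 read 17450 in control 2, 49.1 and 122 in controls 1 and 3 and 42.6 to 50.7 in YY1aKO. It had the largest excess in control 2 of any member. The epididymal markers were high on the same array, and their part in the values of Slc38a5, Slc1a1, Slc7a5, Slc3a2 and Wars there was not tested. The macrophage, endothelial and mesothelial marker sums were lowest in control 2 among the controls, at 7091, 996 and 2702, and their part was not tested either. In YY1aKO these sums ran from 10833 to 12837, 1842 to 2275 and 2166 to 3768, against 12601 and 13349, 2993 and 2530, and 4393 and 4509 in controls 1 and 3.

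**Figure D3:**
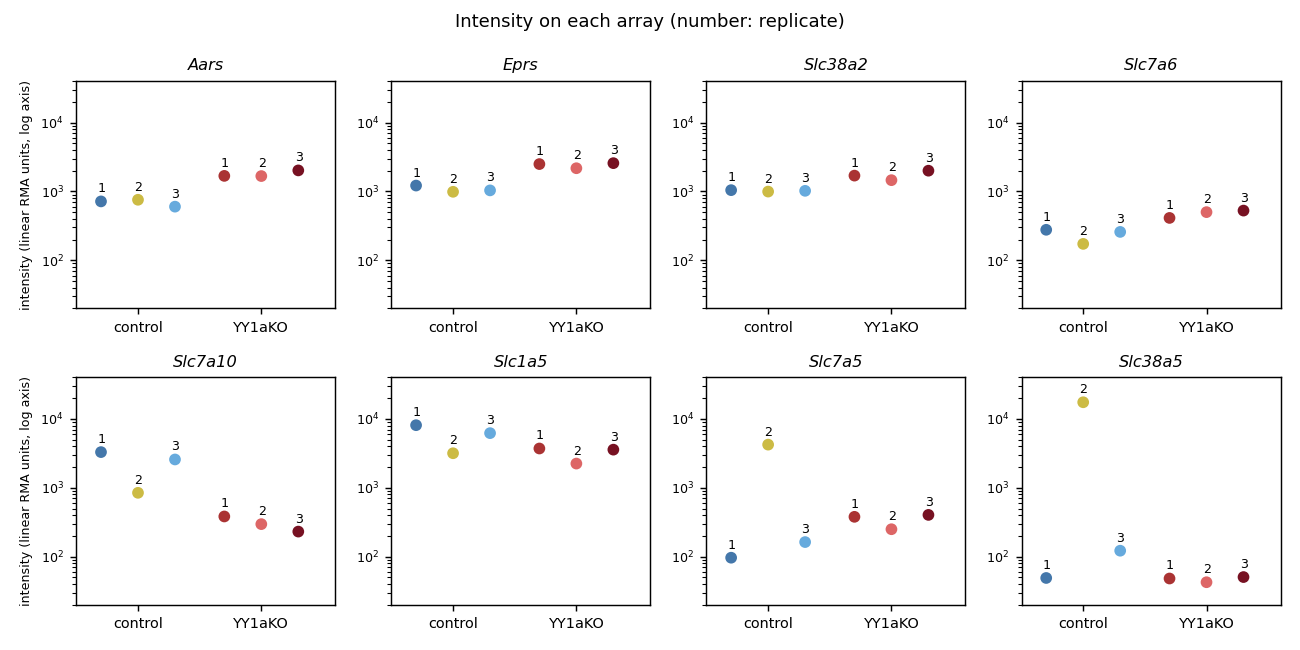
Intensity of 8 members on each array (y axis, linear RMA units on a log axis; numbers mark the replicate). Aars, Eprs, Slc38a2 and Slc7a6 are higher in all 3 YY1aKO arrays and Slc7a10 is lower, while Slc7a5 and Slc38a5 reach 4234 and 17450 in control 2.

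**Figure D4:**
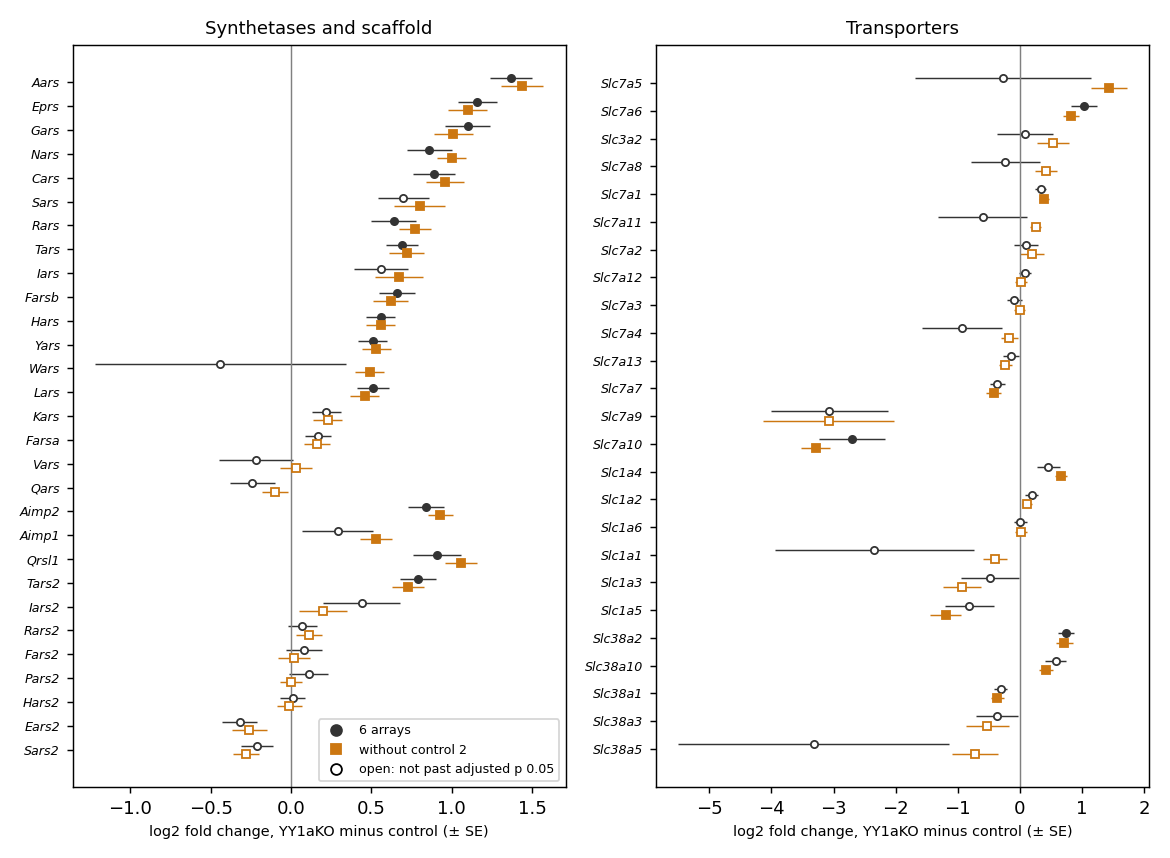
Log2 fold change of each member (x axis, YY1aKO minus control, with the standard error of the fit) with 6 arrays (circles) and without control 2 (squares); filled symbols passed an adjusted p of 0.05. Between the fits Wars moves from -0.44 to 0.49, Vars from -0.22 to 0.03, Iars2 from 0.44 to 0.20, Aimp1 from 0.29 to 0.53 and Slc7a5 from -0.27 to 1.43.

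Promoters were searched because many synthetases rose. RefSeq windows (GRCm38.p6) of 250 bases before to 50 bases after the start were matched for 36 of the 54 members. The element bound by ATF4 with C/EBP partners, searched on both strands as TGATGNAA, was found in a window of 8 of these 36 members (22.2%), against 4.51% of the 27025 genes in the table and 3.13% of those on the array. Among members called higher with 6 arrays, 4 of 11 had a match, and among members not called higher 4 of 25 (16.0%). By family, 5 of 11 cytosolic synthetases and 3 of 16 transporters (18.8%) had one. Of 7 mitochondrial genes 0 had these letters in the window. A match is a description of the letters and not a bound site, and the windows of different starts of a gene can overlap.

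The windows of Aars, Gars and Tars are shown because these genes rose and hold the element before the start, and that of Slc7a11 because it holds the element 2 times and the gene did not pass. Capitals mark the match, read 5′ to 3′ on the gene's strand, with the reverse complement of the element in Aars, Gars and Tars and in the match of Slc7a11 nearer the start. They lie at chr8:111033710-111033757 (plus strand), chr6:55037951-55037998 (plus), chr15:11399659-11399693 (minus) and chr3:50443633-50443699 (minus).
Aars: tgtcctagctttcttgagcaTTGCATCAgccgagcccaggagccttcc
Gars: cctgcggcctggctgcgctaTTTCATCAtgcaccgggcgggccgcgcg
Tars: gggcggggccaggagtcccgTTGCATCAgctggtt
Slc7a11: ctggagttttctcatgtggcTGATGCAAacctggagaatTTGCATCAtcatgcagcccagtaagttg
The first base of the match lay 112, 30 and 15 bases before the start in Aars, Gars and Tars, and the matches in Slc7a11 at 66 and 47 bases. Aars has a further match just after its start. The other members with a match were Yars, Iars, Slc1a4 and Slc7a7. Yars rose with 6 arrays, Iars and Slc1a4 rose without control 2, and Slc7a7 fell without control 2.

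The YY1 motif, searched as AAGATGGC on both strands, was found in 1 of the 36 members, Farsa (2.78%, against 3.19% of all genes in the table and 4.39% of those on the array), and in 0 of the 11 that rose with 6 arrays. The Farsa window is shown as the only match, at chr8:84856872-84856919 (plus strand), 94 bases before the start.
Farsa: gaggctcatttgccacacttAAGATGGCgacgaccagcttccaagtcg
Farsa itself differed by 0.17 ± 0.08 and did not pass.

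**Figure D5:**
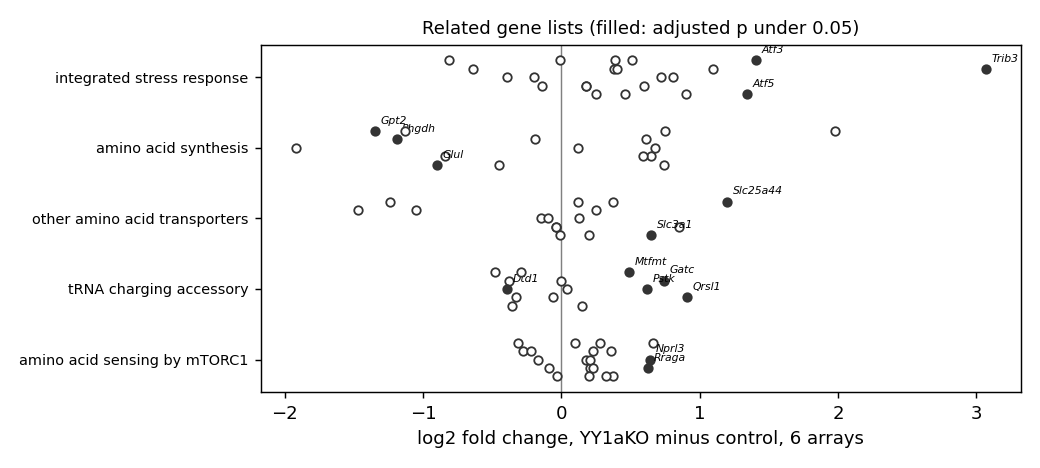
Log2 fold change with 6 arrays (x axis, YY1aKO minus control) of the measured genes of 5 related lists; each point is a gene and filled points passed an adjusted p of 0.05. Trib3 lies farthest to the right at 3.07, and the 3 called genes of amino acid synthesis lie to the left of 0.

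Genes around the members moved unevenly. In the integrated stress response, the pathway that ends in ATF4, 3 of 22 measured genes rose and 0 fell with 6 arrays (limma; 2 were lower at an unadjusted p under 0.05), with a median log2 fold change of 0.40, and 7 rose and 1 fell without control 2. The shares that rose were 13.6% and 31.8%, where 6.85% and 14.7% of all genes did. Trib3, a pseudokinase induced by ATF4 and CHOP, read 124, 90.0 and 107.5 in the controls, against 1248, 421 and 1354 in the YY1aKO samples, a rise of 3.07 ± 0.47. The transcription factors Atf3 and Atf5 rose by 1.41 ± 0.16 and 1.34 ± 0.24. Atf4 itself, chosen after its values were seen, read 1644, 2387 and 1763 in the controls, against 3139, 2145 and 2970 in the YY1aKO samples. Its groups overlapped through control 2 (0.51 ± 0.21, adjusted p = 0.181), and without that array it rose by 0.67 (adjusted p = 0.041).

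The enzymes of amino acid synthesis went both ways. With 6 arrays 0 of 16 measured genes rose (limma; 3 were higher at an unadjusted p under 0.05) and 3 fell, where 6.85% of all genes rose and 3.99% fell. Without control 2, 6 rose (37.5%) and 5 fell, where 14.7% of all genes rose and 11.5% fell. Gpt2, an alanine aminotransferase, fell by 1.35 ± 0.29, Phgdh, the first enzyme of serine synthesis, by 1.19 ± 0.26, and Glul, which makes glutamine, by 0.90 ± 0.09. The later enzymes of serine synthesis Psat1 and Psph, chosen after their values were seen, did not pass with 6 arrays. Without control 2 they rose by 0.51 and 0.97 (limma adjusted p = 0.026 and 0.0037). Mthfd2, a mitochondrial folate enzyme induced by ATF4 and chosen after its values were seen, read 97.3, 821 and 117 in the controls, against 852.5, 630.5 and 1064 in the YY1aKO samples. Control 2 lay among the YY1aKO values, and Mthfd2 rose by 2.96 without it (adjusted p = 0.0019) but did not pass with it (1.98 ± 0.84, adjusted p = 0.191). Asns, which makes asparagine and was chosen in the same way, differed by 0.65 ± 0.26 and passed in neither fit.

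Among 16 measured transporters outside the rule, 2 rose and 0 fell with 6 arrays (limma; 0 were lower at an unadjusted p under 0.05), and 3 rose and 1 fell without control 2. These rises, of 2 and 3 genes, are 12.5% and 18.8% of the list, against 6.85% and 14.7% of all genes. Slc25a44, the mitochondrial carrier of branched-chain amino acids, read 326, 265 and 276 in the controls, against 593, 743 and 657 in the YY1aKO samples, a rise of 1.20 ± 0.13 (adjusted p = 0.010). The groups were far apart. Slc3a1, the heavy chain that pairs with Slc7a9, rose by 0.65 ± 0.14 at intensities of 19.9 to 38.9, whereas Slc7a9 did not pass.

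Of 14 measured accessory genes of tRNA charging and elongation, 4 rose and 1 fell with 6 arrays, and 4 rose and 3 fell without control 2. In both fits 28.6% rose, against 6.85% of all genes, or 14.7% without control 2. The 4 that rose include the member Qrsl1, counted above. Gatc, a partner of the member Qrsl1 in the mitochondrial amidotransferase, rose by 0.74 ± 0.14. The remaining subunit Gatb, chosen after its values were seen, differed by -0.48 ± 0.19, and fell by 0.65 without control 2 (adjusted p = 0.019). Pstk, a kinase of selenocysteine tRNA synthesis, rose by 0.62 ± 0.09 and Mtfmt, which formylates the mitochondrial initiator tRNA, by 0.49 ± 0.11. Dtd1, which removes D-amino acids from tRNA and was also chosen after its values were seen, fell by 0.39 ± 0.08.

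In amino acid sensing by mTORC1, the kinase complex that amino acids activate at the lysosome, 2 of 20 measured genes rose and 0 fell with 6 arrays (limma; 2 were lower at an unadjusted p under 0.05), and 5 rose and 0 fell without control 2 (1 was lower at an unadjusted p under 0.05). The share that rose was 10%, against 6.85% of all genes, and 25% against 14.7% without control 2. Nprl3, of the inhibitory GATOR1 complex, rose by 0.64 ± 0.10, and Rraga, a Rag GTPase that recruits mTORC1, by 0.63 ± 0.10. The median of the list was 0.21 in both fits.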

How the data were processed

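Each of the 3 control and 3 YY1aKO samples of white adipose RNA was hybridised to its own Affymetrix array with a single label. Per the submitters' processing notes RMA produced the deposited intensity values, which lie on a linear scale from 6.09 to 30322. How the authors returned them to that scale is not given in the sources used here. RMA makes the array distributions alike and so hides a change common to most genes. Log2 was taken before any test. The array annotation named a single gene for 20380 of 22690 probe sets, and the brightest probe set stood for each of 12393 genes, with no filter on dim genes. Members were matched by symbol in that annotation. Without detection calls, the background within a low intensity is unknown.

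Groups came from the sample titles. Limma 3.58.1 in R 4.3.3 (lmFit and eBayes) was fitted across all 12393 genes, with Benjamini-Hochberg adjustment over all of them, two-sided tests and a threshold of 0.05, once with 6 arrays and once without control replicate 2. The scripts were tested on simulated data. A fold change is the log2 mean of YY1aKO less that of the controls, with the fit's standard error. Whether samples are separate animals is not given in the labels, so the p-values measure the spread between these samples. The number of arrays limits the precision. Alternatives were other probe set rules, filters, normalizations, priors, array weights, thresholds, a replicate block and each array left out. Samples with the same replicate number did not deviate together (correlations of -0.12, -0.08 and -0.10 across genes), so no pairing was used. The members, gene lists and tests were chosen with earlier results of these data known. Values on every array are given for each member past the threshold with 6 arrays, for those past it without control 2 with a difference of at least 1 log2 unit, and for a fixed set of further members whether or not they passed. Of each related list, up to 4 genes past the threshold with 6 arrays are named. Genes outside these rules are marked in the text as picked with their values known.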

Additional observations from a re-analysis of the deposited data

How the results depend on the processing

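With 6 arrays, between 16 and 18 members rose in 7 settings of the probe set rule, filter, normalization and prior. With array weights 24 rose, and 20 at an adjusted p under 0.10. In the 7 settings 732 to 1140 of the 4957 to 12393 genes tested rose. Of all 12393 genes, 2638 rose with array weights and 1427 at an adjusted p under 0.10, against 849 in the main fit. The replicate block left 0 higher and 0 lower in limma (20 and 4 at an unadjusted p under 0.05). It left 5 of all 12393 genes higher and 7 lower, and samples with the same number share only that number. An adjusted p under 0.01 left 1 higher and 0 lower, and 36 and 35 of all 12393 genes. Array weights gave 7 lower and an adjusted p under 0.10 gave 2, where 2255 and 878 of all genes were lower. Leaving out each array in turn gave 0 to 24 higher and 0 to 4 lower, where 10 to 1817 of all genes were higher and 15 to 1422 lower. Without control 2, leaving out a further array gave 15 to 23 higher and 1 to 5 lower, and the same median on every array gave 2 lower. The causes were not tested.

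All 17 members called with 6 arrays kept their sign in every alternative that measured them. Leaving out an array could not change that sign, because their groups did not overlap. Values of single members under the alternatives were taken for the 28 members that the rules above give on every array. Vars and Slc7a9 were not among them, and the counts that follow cover only these 28. With 6 arrays 10 values changed sign, all of members not called in that fit, of which Slc7a5 and Wars were called higher without control 2. These were Slc3a2 (-0.16 without control 1, -0.14 without control 3 and -0.14 without YY1aKO 3), Slc7a11 (0.14 with array weights, 0.26 without control 2), Slc7a3 (0.00 without control 2), Slc7a5 (1.00 and 1.43 in the same settings) and Wars (0.45 and 0.49). With single arrays left out, these ran from -0.16 to 0.54 for Slc3a2, -1.07 to 0.26 for Slc7a11, -0.16 to 0.00 for Slc7a3, -1.30 to 1.43 for Slc7a5 and -0.94 to 0.49 for Wars. Without control 2, Slc7a3 changed sign to -0.03 without control 1 and -0.05 without YY1aKO 1, and was at most 0.04 with a further array left out. Among the same 28 members, 87 values lost their call and 16 gained one with 6 arrays, and 22 and 5 without control 2. Dim members such as Slc7a1 and Slc7a11 are limited by their low signal.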
